A study of Chlorocebus aethiops with 8 samples.

Results

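The genes described here drive the G1/S transition and copy DNA in S phase. They were chosen by name, as 47 symbols that cover the replicative helicase, origin licensing, the DNA polymerases, the sliding clamp, nucleotide supply and the regulators of S-phase entry. Of the 47, 34 had at least 1 probe set that carried that single symbol in the probe annotation, out of 55 member probe sets in all, and 33 had a probe set bright enough to be tested (RFC3 did not). The 33 were read against 10106 tested genes. The other 13 (MCM6, MCM7, ORC6, CDC7, DBF4, POLE, PRIM1, RFC4, FEN1, LIG1, RPA1, RRM2 and TK1) were not analysed here.

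The RNA came from COS cells, an established kidney line of the African green monkey, and was measured on 8 rhesus macaque arrays. All cells received siRNA at 0.5 nM in 2 rounds. The first round comprised 4 h free of serum and then 24 h with 10% FBS; the cells were then split, transfected again 24 h later by the same procedure and kept for 24 h more. Controls received scrambled siRNA, and the other cells siRNAs against RNA helicase A (RHA, the product of DHX9), designed on the human coding sequence (nucleotides 2701 to 2721, and 2784 to 2803). Cytoplasmic RNA and RNA from the polysome fraction gave 4 groups of 2 arrays: control cytoplasm, RHA siRNA cytoplasm, control polysomes and RHA siRNA polysomes. The replicate numbers in the titles define set 1 and set 2, each with 1 array of every group, and paired values below are given as set 1, then set 2.

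As background, the passage into S phase is controlled by the E2F transcription factors, which the retinoblastoma protein holds back until cyclin-dependent kinases inactivate it. E2F then raises transcription of cyclin E, of the factors that load the MCM helicase at origins, and of the enzymes that make deoxynucleotides and copy DNA. COS cells carry the SV40 large T antigen, which binds the retinoblastoma protein and frees E2F. Replication-dependent histone mRNAs accumulate in the same phase, are not polyadenylated, and end in a stem-loop bound by the protein SLBP. The comparison with histone genes asked whether S-phase genes shifted together with the histone genes under RHA siRNA.

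Median intensity was 19.3 to 20.8 on every array. By its brightest probe set DHX9 itself read 244 and 342 in control cytoplasm, and 130 and 254 in RHA siRNA cytoplasm. In polysomes it read 359 and 477 under control siRNA, and 97.2 and 269 under RHA siRNA. It was thus lower in 4 of 4 comparisons within a set. That probe set may also read related transcripts, judging by its suffix. Dimmer probe sets of the gene, below the brightness limit for testing, were not lower throughout. Their log2 differences in cytoplasm were -0.72 and -1.33, -0.40 and 0.02, and -0.10 and 0.04. In polysomes they were, in the same order, -0.70 and 0.09, -0.87 and -0.02, and 0.13 and -0.09. The sets differed across the whole array: 28.9% of probe sets were higher and 22.4% lower in set 2 (adjusted p under 0.05, limma). One array, control cytoplasm of set 1, stood apart: its median correlation to its own set was 0.949, and that of each other array at least 0.967. The 3′ minus 5′ difference of the actin, GAPDH and EF1A control probe sets, a sign of RNA integrity, differed between RHA and control siRNA by -1.07 in cytoplasm and 1.17 in polysomes of set 1, and by -0.27 and -0.35 in set 2 (log2). Its part in the results was not tested. Of kidney tubule markers 6 of 12 were bright enough to be tested, of mesenchymal markers 6 of 8 on the array and of leukocyte markers 3 of 6. Of hepatocyte markers 2 of 3 on the array were tested. VIM read 4043 to 6345, AQP1 856 to 2262 and EPCAM 204 to 447, while the tubule markers CDH1 and UMOD were highest at 14.4 and 12.9. Outside kidney and mesenchyme, PTPRC, which defines leukocytes, was highest at 12.9, but CD68 read 105 to 286, LYZ 27.8 to 119 and SERPINA1 133 to 1099.

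RHA siRNA left the S-phase genes without a common direction. Over both fractions 17 of 33 members were above control and 16 below, with a median log2 difference of 0.02 against 0.03 for all genes, of which 53.8% lay above 0. In cytoplasm 18 of 33 were above control (all genes 56.1%) and in polysomes 13 of 33 (49.7%). In bulk RNA, fewer cells in S phase and less RNA per cell cannot be told apart. The same sign held in both sets for 7 higher and 11 lower members over both fractions (background 28.1% and 25.5% of genes), 7 and 9 in cytoplasm (29.3% and 24.1%) and 6 and 8 in polysomes (27.3% and 27.4%). Limma called 0 of 33 members in either direction in each of the 7 comparisons of siRNA and fraction (26383 probe sets tested, 0% of them called; the smallest adjusted p was 1.00).

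At an unadjusted p under 0.05 limma had 0 members in each comparison. Of all genes it had 2.13% over both fractions, 1.49% in cytoplasm, 0.673% in polysomes, 0.218% for the change in loading, and 0.237%, 0.237% and 0.139% for loading under control siRNA, RHA siRNA and both. A further fit took out the difference between sets by adding the replicate number to the model (the replicate block). It again called 0 members, against 0.00758% of probe sets higher and 0% lower over both fractions and 0% in the other 6 comparisons. At an unadjusted p under 0.05 the block gave 2 higher members over both fractions (CCNE1, RPA2) and 3 lower (RRM1, CCNE2, RFC2), beside 6.92% and 5.45% of genes. In cytoplasm it gave 3 higher (MCM4, CCNE1, RPA2) and 2 lower (CCNE2, RRM1), beside 7.2% and 5.06%, and in polysomes 0 of either, beside 2.52% and 2.85%. The shares of the 33 members were thus near those of all genes. With single arrays left out under the block, members passed the threshold only without the cytoplasmic control of set 2. Many probe sets outside the members passed there as well. In that fit the log2 difference in cytoplasm was 2.00 for MCM4 and 1.96 for GINS4. There the deviating array of set 1 is the lone control for cytoplasm.

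The histone genes and the S-phase genes had different medians in the 4 comparisons within a set. The median of the 19 tested replication-dependent histone genes under RHA siRNA, relative to control, was 0.35 and 0.46 (log2) for cytoplasm and 0.43 and 0.41 for polysomes. The median of the 33 S-phase genes was 0.17 and -0.12 in cytoplasm and -0.04 and -0.02 in polysomes, beside 0.06 and 0.01, and -0.03 and 0.02, for all genes. The histone median was thus higher than that of the S-phase genes in 4 of 4 comparisons, and the S-phase median was below 0 in 3 of them. Of histone genes 8 of 19 were higher in 4 of 4 comparisons, against 2 of 33 S-phase genes and 10.4% of all genes, and 0 of 19 were lower in all 4, against 3 of 33 and 9.76%. The histone list was known from earlier results of these data to be high under RHA siRNA, so these figures describe the libraries and are not a test. Histone probe sets were dimmer on the whole, with mean log2 intensities from 4.35 to 9.02 against a limit for testing of 4.32. Their mRNAs lack a poly(A) tail, and whether the amplification primer needs one is not given in the sources used here.

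**Figure D1:**
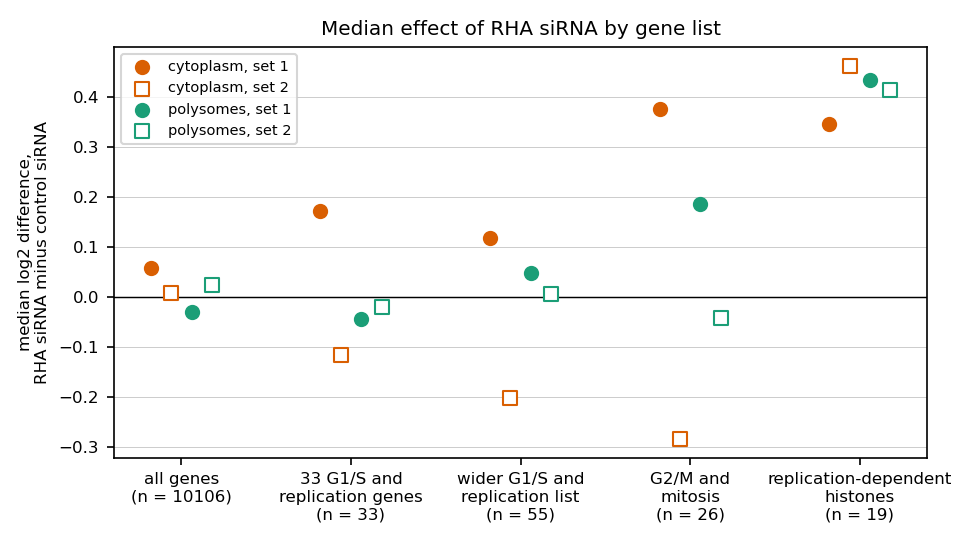
Median log2 difference between RHA and control siRNA (vertical axis) for all tested genes, the 33 S-phase genes, a wider G1/S list, G2/M genes and replication-dependent histones, with 1 point for each fraction and set. The histone medians lie between 0.35 and 0.46, above the S-phase medians, which run from -0.12 to 0.17.

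The same comparison was made for the rest of the cell cycle. A wider list of 55 tested G1/S and replication genes outside the members, among them cyclin D1, other E2F proteins and checkpoint factors, had medians of 0.12 and -0.20 in cytoplasm and 0.05 and 0.01 in polysomes. Of its genes 25 of 55 were above 0 over both fractions, and limma called 0, with or without the block. At an unadjusted p under 0.05 with the block 7 were higher and 5 lower (background 6.92% and 5.45% of genes). The higher ones included CCND1 (cyclin D1, which opens G1 by activating CDK4 and CDK6; log2 0.58, SE 0.22 with the block) and CDC25A (a phosphatase that activates CDK2; 0.53, SE 0.21). The lower ones included CLSPN (claspin, an adaptor of the replication checkpoint; -0.50, SE 0.18) and USP1 (a deubiquitinase that acts on PCNA; -0.44, SE 0.16). G2/M genes, 26 of them tested, had medians of 0.37 and -0.28 in cytoplasm and 0.18 and -0.04 in polysomes, so their sign followed the set.

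**Figure D2:**
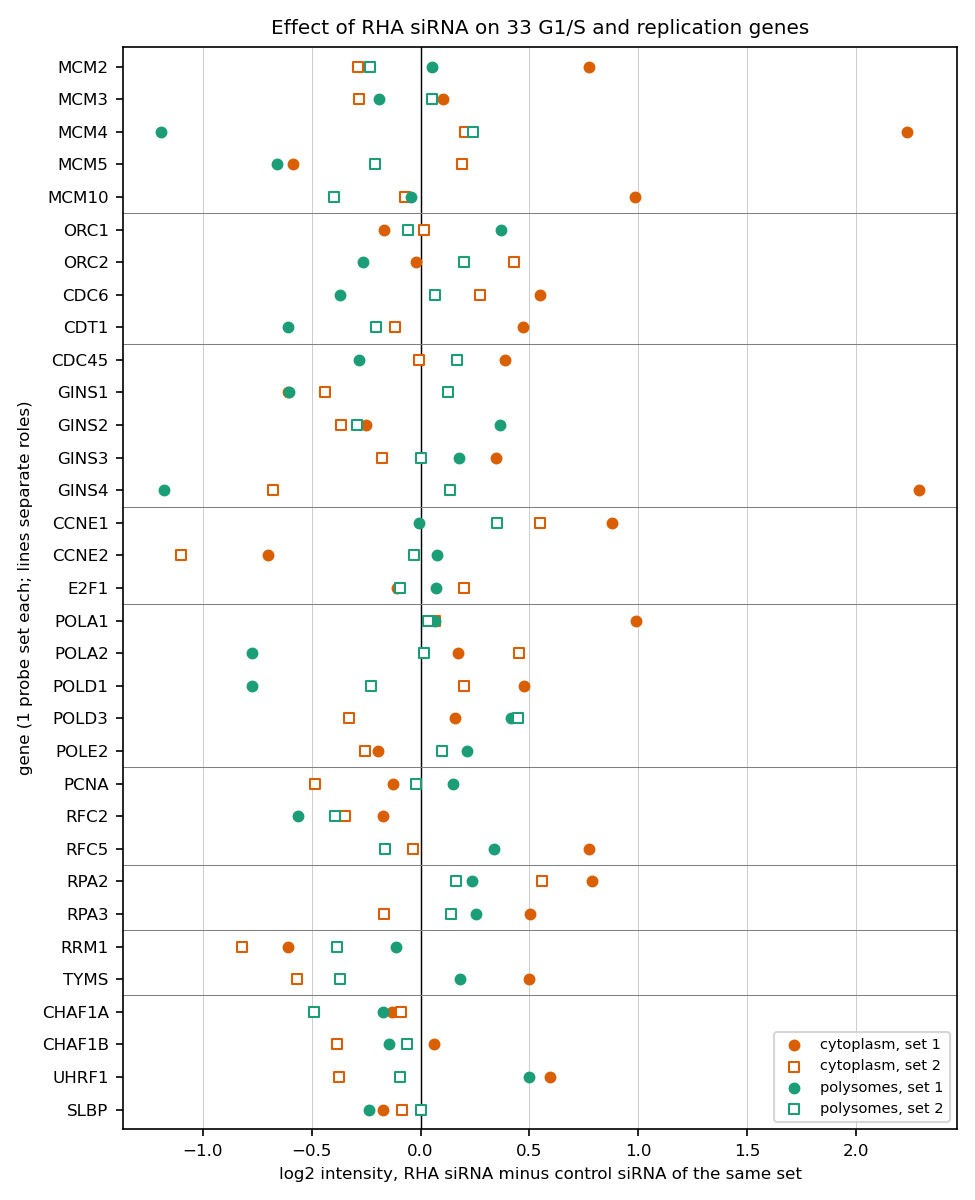
Log2 intensity under RHA siRNA minus control siRNA of the same set (horizontal axis) for each of the 33 tested genes, ordered by role, with filled circles for set 1 and open squares for set 2. Most genes have points on both sides of 0, RPA2 and POLA1 lie above 0 in 4 of 4 points, RFC2, RRM1 and CHAF1A below 0 in 4 of 4, and MCM4 and GINS4 spread most, in set 1.

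Among regulators of S-phase entry the 2 cyclin E genes differed in direction in cytoplasmic RNA. CCNE1, cyclin E1, which activates CDK2 at the G1/S boundary, read 1105 and 1669 in control cytoplasm, 2034 and 2442 in RHA siRNA cytoplasm, 1584 and 1538 in control polysomes and 1576 and 1963 in RHA siRNA polysomes. Its cytoplasmic arrays did not overlap, with both RHA siRNA arrays above both controls, and its polysomal arrays did. The log2 difference was 0.72 in cytoplasm (SE 0.35; 0.88 and 0.55 in the sets) and 0.17 in polysomes (-0.01 and 0.35), with an adjusted p of 1.00 in limma for each. With the replicate block the cytoplasmic SE of CCNE1 was 0.25 and its 95% interval 0.14 to 1.29 (adjusted p = 0.343, limma). CCNE2, cyclin E2, which activates the same kinase, read 699 and 238 in control cytoplasm, 429.9 and 111 in RHA siRNA cytoplasm, 688 and 202 in control polysomes and 725 and 198 in RHA siRNA polysomes. Within each set its lowest array was RHA siRNA cytoplasm, but set 1 lay far above set 2 throughout, so the groups overlap. The log2 difference was -0.90 in cytoplasm (SE 1.04; -0.70 and -1.10) and 0.02 in polysomes (0.08 and -0.03). The SE of 1.04 includes the gap between sets. With the replicate block, which takes that gap out, the cytoplasmic SE of CCNE2 was 0.23. Its 95% interval was then -1.43 to -0.36 (adjusted p = 0.279, limma), so it did not pass the test. A dimmer probe set of CCNE2 was not lower in both sets, at 1.83 and -0.73 in cytoplasm.

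E2F1, the transcription factor that switches on many of the other members, varied little with the siRNA by its brightest probe set. It read 246 and 127 in control cytoplasm, 228 and 145 in RHA siRNA cytoplasm, 201 and 130.2 in control polysomes and 211 and 122 in RHA siRNA polysomes. The siRNA difference over both fractions was 0.02 (SE 0.36), and the 95% interval with the replicate block was -0.36 to 0.39 (log2, limma). The arrays of the groups overlap, and the sets differ more than the siRNAs. A dimmer tested probe set of E2F1 was lower under RHA siRNA in cytoplasm of both sets, at -0.27 and -0.58. In polysomes that probe set gave -0.09 and 0.04.

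**Figure D3:**
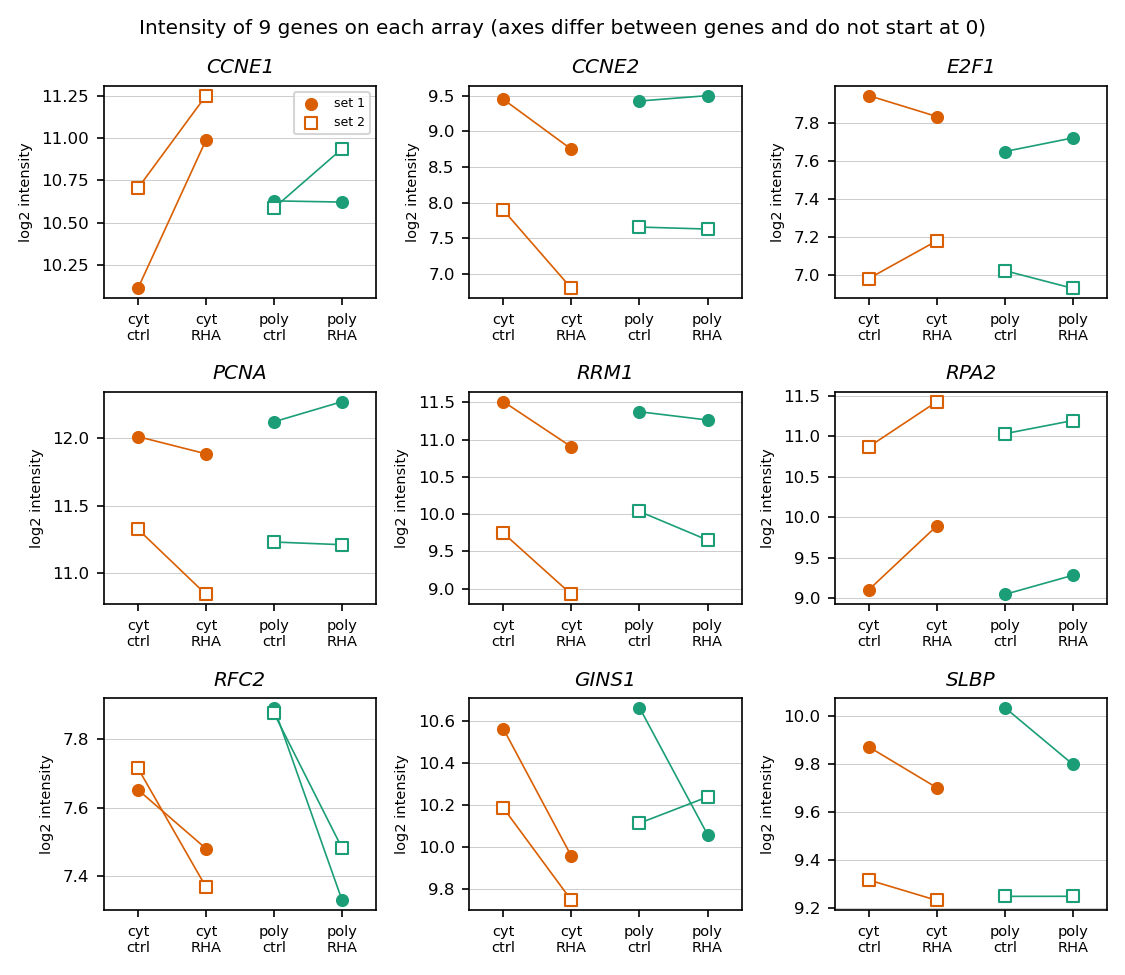
Log2 intensity (vertical axis, own range for each gene) of 9 genes on each array, by fraction and siRNA, with filled circles for set 1, open squares for set 2 and lines joining control to RHA siRNA within a set and fraction. CCNE1 slopes up and CCNE2 down in cytoplasm of both sets, RFC2 slopes down in all 4 comparisons, and for CCNE2, PCNA, RRM1 and RPA2 the gap between sets is wider than any slope.

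Origin licensing builds on the origin recognition complex (ORC), to which CDC6 and CDT1 bring the MCM helicase. CDC6 read 264 and 405 under control siRNA and 385 and 489 under RHA siRNA in cytoplasm, and 356 and 414 against 276 and 433 in polysomes. CDT1 read 101 and 50.2 under control siRNA and 140.5 and 46.4 under RHA siRNA in cytoplasm, and 168 and 62.1 against 109.9 and 53.9 in polysomes. Both had their siRNA arrays on either side of control: the log2 differences of CDC6 were 0.55 and 0.27 in cytoplasm, then -0.37 and 0.07 in polysomes, and those of CDT1 0.47 and -0.12, then -0.61 and -0.20. A slightly dimmer probe set of CDC6 gave 0.76 and -0.54 in cytoplasm and 0.34 and 0.08 in polysomes. ORC1, the largest subunit of ORC, read 63.3 and 126 under control siRNA and 56.4 and 128 under RHA siRNA in cytoplasm, and 44.5 and 124 against 57.4 and 119 in polysomes. Its siRNA difference was -0.07 in cytoplasm and 0.15 in polysomes, well within the gap between sets. ORC2, another subunit, had differences of -0.02 and 0.43 in cytoplasm and -0.26 and 0.20 in polysomes.

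Of the MCM genes, 5 were tested, and 3 of 5 were above control over both fractions. MCM2 to MCM7 form the ring that unwinds DNA, and MCM10 helps to activate it. MCM4 read 141 and 272 in control cytoplasm, 661 and 314 in RHA siRNA cytoplasm, 724 and 339 in control polysomes and 317 and 401 in RHA siRNA polysomes. In set 1 the cytoplasmic control array was the lowest and the polysomal control the highest, a gap that gave siRNA differences of 2.23 and 0.21 in cytoplasm and -1.19 and 0.24 in polysomes. In set 2 the 4 arrays of MCM4 lay between 272 and 401. Its cytoplasmic difference of 1.22 (SE 0.58) by this probe set therefore rests on set 1. A much dimmer tested probe set of MCM4 gave 0.38 and 0.25 in cytoplasm and 0.10 and 0.28 in polysomes. Another gave 1.06 and -0.43 in cytoplasm and -0.82 and -0.11 in polysomes. Both lay near the limit of brightness. MCM2 read 188 and 155 under control siRNA and 321 and 127 under RHA siRNA in cytoplasm, and 317 and 182 against 329 and 155 in polysomes, and its set 1 was higher in cytoplasm under RHA siRNA while its set 2 was lower. MCM3 read 203 and 252 under control siRNA and 218 and 207 under RHA siRNA in cytoplasm, and 268 and 258 against 235 and 268 in polysomes, with overlap in both fractions. MCM5 and MCM10 had siRNA differences over both fractions of -0.62 and -0.01 and of 0.47 and -0.24 in the sets.

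CDC45 and the 4 GINS subunits, which join the MCM ring to form the active helicase, gave 3 of 5 above control. GINS1 read 1511 and 1164 in control cytoplasm, 992 and 858 in RHA siRNA cytoplasm, 1620.4 and 1107 in control polysomes and 1066 and 1207 in RHA siRNA polysomes. In cytoplasm both RHA siRNA arrays lay under both controls, while in polysomes set 2 was slightly higher. Its log2 difference was -0.52 in cytoplasm (SE 0.35) and -0.24 in polysomes. GINS2 read 59.1 and 74.8 under control siRNA and 49.7 and 58.1 under RHA siRNA in cytoplasm, and 42.7 and 79.2 against 54.9 and 64.7 in polysomes. It too was lower in cytoplasm of both sets without overlap, and in polysomes the sets went opposite ways. Over all members 3 genes were higher without overlap in cytoplasm and 4 lower (background 11.6% and 8.88% of genes), and in polysomes 1 was higher and 2 lower (7.97% and 9.03%). GINS4 had differences of 2.29 and -0.68 in cytoplasm, and CDC45 and GINS3 stayed between -0.28 and 0.39 in all 4 comparisons. A dimmer tested probe set of GINS4 gave -0.10 and -0.39 in cytoplasm and -0.42 and -0.95 in polysomes.

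The polymerase group held 5 tested genes. POLA1, the catalytic subunit of polymerase alpha, which with primase starts each new strand, read 159.6 and 273 in control cytoplasm, 316 and 286 in RHA siRNA cytoplasm, 239 and 304 in control polysomes and 251 and 312 in RHA siRNA polysomes. It was 1 of the 2 members above control in 4 of 4 comparisons, with 0.99 and 0.06 in cytoplasm and 0.07 and 0.04 in polysomes, so that apart from set 1 cytoplasm the differences were small. POLA2, its regulatory subunit, read 94.6 and 47.6 under control siRNA and 107 and 65.0 under RHA siRNA in cytoplasm, and 151 and 73.0 against 88.4 and 73.8 in polysomes. POLD1, the catalytic subunit of polymerase delta, which copies the lagging strand, read 56.8 and 46.6 under control siRNA and 78.9 and 53.6 under RHA siRNA in cytoplasm, and 104 and 47.4 against 60.8 and 40.4 in polysomes. POLD1 was higher in cytoplasm and lower in polysomes in both sets (0.47 and 0.20, then -0.77 and -0.23). Its other probe set, too dim to be tested, did not show this. POLD3, an accessory subunit of that enzyme, read 129 and 386 under control siRNA and 144 and 308 under RHA siRNA in cytoplasm, and 197 and 357 against 263 and 487 in polysomes. It was higher in polysomes in both sets (0.41 and 0.45), yet its groups overlap because set 2 was brighter. POLE2, a subunit of the leading-strand polymerase epsilon, read 2848 and 2557 (control) and 2484 and 2139.6 (RHA siRNA) in cytoplasm, and 3141 and 2301 (control) and 3641 and 2462 (RHA siRNA) in polysomes, lower in cytoplasm and higher in polysomes in both sets. The dimmer POLE2 probe set did not show this, at 0.49 and -0.49 in cytoplasm and 0.64 and -0.01 in polysomes.

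PCNA, the sliding clamp that tethers polymerases to DNA, read 4130.4 and 2567 (control) and 3781 and 1836 (RHA siRNA) in cytoplasm, and 4458 and 2403 (control) and 4944 and 2370.3 (RHA siRNA) in polysomes. Its siRNA difference was -0.12 over both fractions (SE 0.42), and the 95% interval with the replicate block was -0.50 to 0.26 (limma). RFC2, a subunit of the loader that opens the clamp, read 201 and 210.2 in control cytoplasm, 179 and 165 in RHA siRNA cytoplasm, 238 and 235 in control polysomes and 161 and 179 in RHA siRNA polysomes. It was the single member whose 4 RHA siRNA arrays all lay under its 4 control arrays, where 1.46% of genes were lower without overlap and 1.86% higher. The log2 difference of RFC2 was -0.37 (SE 0.20; -0.37 and -0.37 in the sets), made of -0.26 in cytoplasm and -0.48 in polysomes, with an adjusted p of 1.00 in limma or 0.416 with the block. RFC5, another loader subunit, had 0.77 and -0.03 in cytoplasm and 0.34 and -0.16 in polysomes. RFC3 was too dim to be tested, at 7.97 to 26.1, and was lower under RHA siRNA in 4 of 4 comparisons.

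RPA, the trimer that coats single-stranded DNA at the fork, was read by 2 tested genes. RPA2, named here after its values were seen, read 551 and 1869.6 in control cytoplasm, 951 and 2750.4 in RHA siRNA cytoplasm, 529 and 2091 in control polysomes and 623 and 2340.4 in RHA siRNA polysomes. It was above control in 4 of 4 comparisons (0.79 and 0.56 in cytoplasm, 0.24 and 0.16 in polysomes), with a log2 difference of 0.44 over both fractions and a 95% interval with the block of 0.05 to 0.82 (adjusted p = 0.358, limma). A dimmer probe set of RPA2 gave 2.45 and 0.50 in cytoplasm and -0.48 and 0.26 in polysomes. RPA3 read 1447 and 1354 under control siRNA and 2053 and 1207 under RHA siRNA in cytoplasm, and 1522 and 1342 against 1815 and 1478 in polysomes, above control in 3 of 4 comparisons.

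For nucleotide supply, ribonucleotide reductase and thymidylate synthase were read. RRM1, the large subunit of the reductase that makes deoxynucleotides, also named after its values were seen, read 2911 and 858 in control cytoplasm, 1913 and 486 in RHA siRNA cytoplasm, 2650.3 and 1049.7 in control polysomes and 2455 and 805 in RHA siRNA polysomes. RRM1 was below control in 4 of 4 comparisons, with -0.61 and -0.82 in cytoplasm and -0.11 and -0.38 in polysomes. Its 95% interval over both fractions with the block was -0.89 to -0.07 (adjusted p = 0.337, limma), and a dimmer probe set gave 1.08 and -0.25 in cytoplasm. TYMS, which makes thymidylate, read 548 and 855 under control siRNA and 775 and 578 under RHA siRNA in cytoplasm, and 652 and 885 against 739 and 686 in polysomes. By this probe set TYMS was higher in set 1 and lower in set 2 in both fractions. A dimmer tested probe set gave 2.48 and -0.37 in cytoplasm and -0.79 and -0.24 in polysomes.

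SLBP, which binds the stem-loop of histone mRNAs and is needed for their processing and translation, is the member closest to the histone genes in function. It read 938 and 638 in control cytoplasm, 833 and 601 in RHA siRNA cytoplasm, 1051 and 608 in control polysomes and 891 and 608 in RHA siRNA polysomes. The siRNA difference was -0.17 and -0.09 in cytoplasm, and -0.24 and 0.00 in polysomes. Over both fractions it was -0.12 (SE 0.31), and the 95% interval with the block was -0.49 to 0.25 (limma). For scale, the linker histone gene H1-2 had a log2 difference of 2.15 in the same arrays, from 259 and 187 to 1572 and 847 in cytoplasm and from 326 and 231 to 1111 and 963 in polysomes. By its suffix, the H1-2 probe set may also read related transcripts. CHAF1A, the large subunit of the chromatin assembly factor that places histones on new DNA, read 346 and 293 under control siRNA and 316 and 275 under RHA siRNA in cytoplasm, and 349.7 and 466 against 311 and 333 in polysomes. It was below control in 4 of 4 comparisons by 0.09 to 0.49 on the log2 scale, and its polysomal arrays did not overlap. The 3 dimmer probe sets of CHAF1A were higher in set 1 cytoplasm, at 1.29, 1.28 and 0.85, and gave 0.16, -0.33 and -0.28 in set 2. In polysomes they gave, in the same order, -1.07 and -0.49, -0.52 and -0.18, and 0.08 and -0.32. CHAF1B, the middle subunit, had -0.04 and -0.22 over both fractions, and UHRF1, which recruits the maintenance DNA methyltransferase, 0.55 and -0.23.

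Counted over all members, 2 were above control in 4 of the 4 within-set comparisons, 7 in 3, 12 in 2, 9 in 1 and 3 in none. The shares of 2 of 33 and 3 of 33 stand beside 10.4% and 9.76% of all genes. Further tested probe sets of the members, 15 for 12 genes, shared the sign of the brightest probe set in 6 of 15 cases over both fractions, 6 of 15 in cytoplasm and 11 of 15 in polysomes. The siRNA directions of single members thus varied between probe sets of the same gene. For the loading described next, 14 of 15 shared the sign in control cells but 6 of 15 under RHA siRNA. For both siRNAs together it was 10 of 15, and for the change in loading 10 of 15.

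Loading on ribosomes was read as the polysomal minus the cytoplasmic log2 intensity, on arrays that each started from 25 ng of RNA, so it is relative to other RNAs. In control cells 28 of 33 S-phase genes were above 0 against 61.8% of all genes, with a median of 0.20 against 0.08. In set 1 the medians were 0.19 and 0.10, and in set 2 0.08 and 0.05, members first. The wider G1/S list had medians of 0.20 and 0.01 in the sets, and the G2/M genes 0.18 and -0.002. Among the brightest 25% of probe sets 27 of 31 members were above 0 against 68.6% of genes. Their median there was 0.20 against 0.12. After quantile normalization, which moves the median of all genes from 0.08 to -0.03, 21 of 33 members were above 0 (all genes 45.8%) and their median was 0.04. With control cytoplasm of set 1 left out, 23 of 33 were above 0 (all genes 56.2%). With control polysomes of set 1 left out, 19 of 33 were above 0 (all genes 54.5%), and the median was 0.09 against 0.06. In both sets 19 of 33 were above 0 and 2 below (background 35.4% and 18.8%). In 4 of 4 comparisons, under either siRNA and in either set, 3 members were higher in polysomes (MCM2, MCM3 and GINS3) and 0 lower, beside 9.46% and 5.64% of genes. Limma called 0 members, with or without the block, and at an unadjusted p under 0.05 the block gave 2 higher (MCM4, POLA2) and 0 lower (background 3.33% and 0.554%). By arrays, 5 were higher without overlap (MCM3, MCM4, GINS3, RFC2 and CHAF1A; background 10.2%) and 0 lower (4.58%). With control cytoplasm of set 2 left out, which leaves 1 array for that group, the block gave log2 2.12 for MCM4 and 2.52 for GINS4. With all arrays GINS4 had 2.69 and 0.06 in the sets, and its dimmer tested probe set 0.03 and 0.58. The log2 values were 2.36 and 0.32 for MCM4, 0.40 and 0.03 for MCM3, 0.24 and 0.16 for RFC2 and 0.01 and 0.67 for CHAF1A. POLA2 was higher in polysomes as well (0.68 and 0.62). At the low end were ORC1 (-0.51 and -0.02), GINS2 (-0.47 and 0.08) and E2F1 (-0.29 and 0.04), none of them past the test. The 3′ minus 5′ difference of the control probe sets was -1.53 in this comparison in set 1 and 0.32 in set 2, and its part in the result was not tested.

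**Figure D4:**
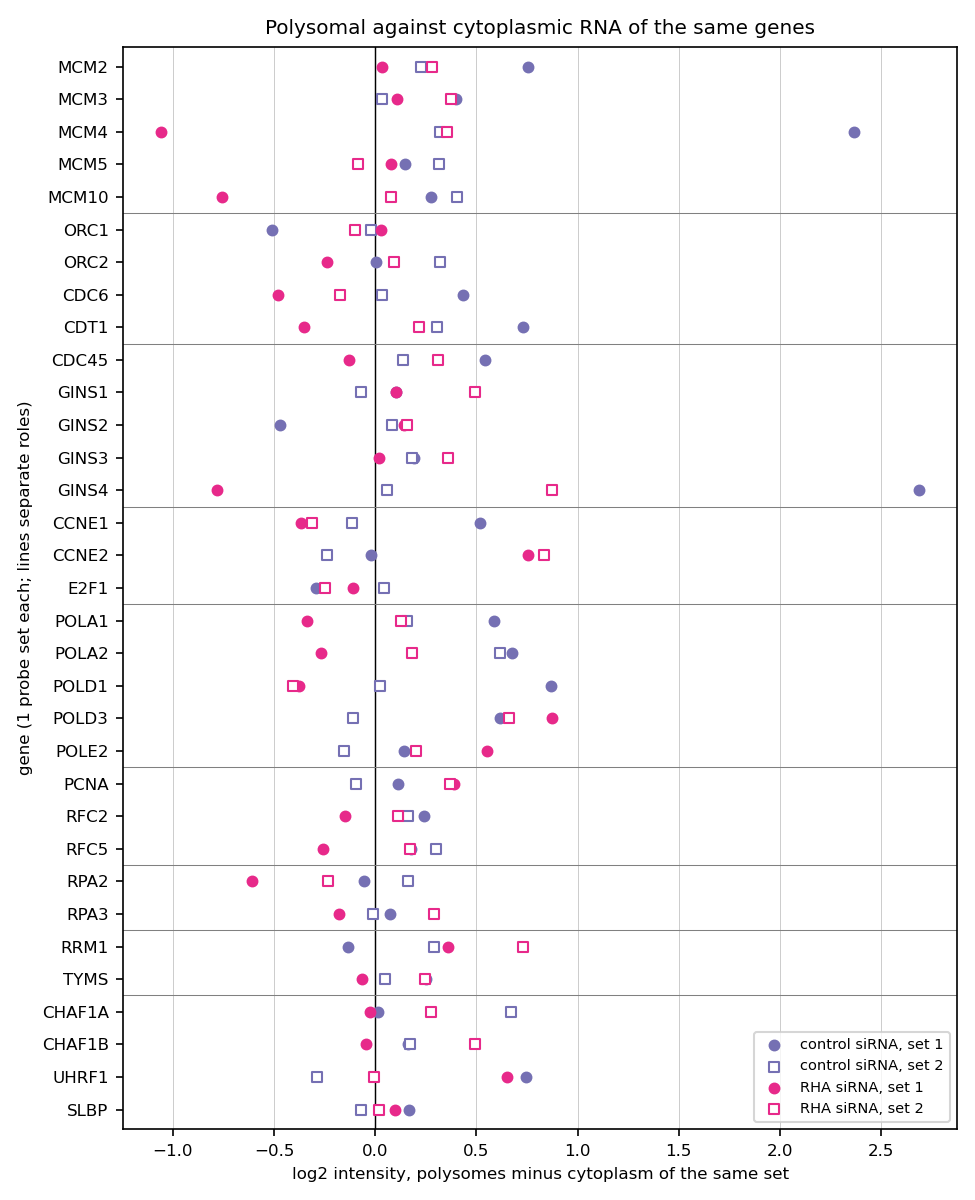
Log2 intensity in polysomes minus cytoplasm of the same set (horizontal axis) for each of the 33 genes, under control and RHA siRNA, with filled circles for set 1 and open squares for set 2. The control points lie above 0 for 27 genes in set 1 and 23 in set 2, while the RHA siRNA points lie above 0 for 14 and 25.

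Under RHA siRNA the S-phase genes spread around 0: 18 of 33 were above 0 against 52% of all genes, with medians of -0.07 in set 1 and 0.20 in set 2 beside -0.04 and 0.10 for all genes. Under quantile normalization 13 of 33 were above 0 (all genes 47.8%). Among the brightest 25% of probe sets it was 17 of 31 (all genes 57.1%), with a median of 0.06 against 0.07. With single arrays left out the count ran from 11 of 33 (median -0.16; RHA siRNA cytoplasm of set 2 left out) to 25 of 33 (0.30; that of set 1 left out). In both sets 11 of 33 were above 0 and 5 below (background 32.3% and 25.1%). Without overlap between arrays GINS1 and MCM3 were higher and CCNE1 lower in polysomes (background 9.83% and 7.63%). CCNE2 had 0.75 and 0.83, POLD3 0.87 and 0.66 and POLE2 0.55 and 0.20 on the high side. On the low side were CCNE1 (-0.37 and -0.32), CDC6 (-0.48 and -0.18) and POLD1 (-0.38 and -0.41). Dimmer tested probe sets gave 0.22 and 0.45 for CDC6, the opposite sign, -0.12 and 0.29 for POLE2 and 0.18 and 0.24 for CCNE2. For both siRNAs together 27 of 33 were above 0 against 63.2% of all genes, with a median of 0.16 against 0.07. After quantile normalization it was 18 of 33 (all genes 48.2%) and 0.03. Among the brightest 25% of probe sets it was 26 of 31 (all genes 71.9%), with a median of 0.19 against 0.11. With RHA siRNA cytoplasm of set 2 left out it was 19 of 33 (all genes 55.3%), with a median of 0.03 against 0.04, and with control polysomes of set 1 left out 20 of 33 and 0.07 against 0.05. In both sets 19 of 33 were above 0 and 4 below for both siRNAs together (background 40% and 19.8%), and 0 were free of overlap (0.386% and 0.356%). Limma called 0 members in either comparison, with or without the block. At an unadjusted p under 0.05 the block gave 2 higher members under RHA siRNA (CCNE2 and POLD3; 0 lower; background 3.12% and 1.11%) and 1 for both siRNAs (POLD3; 0 lower; 2.17% and 0.95%).

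The change in loading under RHA siRNA, named in the series' title as its subject, had medians of opposite sign in the 2 sets. Its median over the members was -0.22 against -0.03 for all genes, with 14 of 33 above 0 (all genes 46.8%), and was made of -0.25 in set 1 and 0.05 in set 2. In set 1 all genes had -0.08 and in set 2 0.05. With control cytoplasm of set 1 left out the median was -0.09, and with RHA siRNA cytoplasm of set 1 left out it was 0.17, with 20 of 33 members above 0. Of single members MCM4 had -1.69 (SE 0.83; -3.42 and 0.04 in the sets), which rests on set 1. CCNE1 had -0.54 (SE 0.49, with -0.89 and -0.20 in the sets) and CCNE2 0.92 (SE 1.47, with 0.78 and 1.07). With the block the SE was 0.35 for CCNE1 and 0.33 for CCNE2 (adjusted p = 0.967 each, limma). By these probe sets the 2 cyclin E genes had opposite signs here in both sets. A dimmer CCNE2 probe set had loading of 1.41 and -0.76 under control siRNA and 0.18 and 0.24 under RHA siRNA. Its change in set 1 was thus negative, as for CCNE1. GINS2 had 0.61 and 0.07 and POLE2 0.41 and 0.35. In both sets 7 of 33 members were higher and 13 lower (background 26.9% and 28.2%), and limma called 0 with or without the block. At an unadjusted p under 0.05 the block gave CCNE2 higher and MCM4 lower (background 0.97% and 3.2%).

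Between the replicate sets 18 of 33 S-phase genes passed the test, against 0 in each comparison of siRNA or fraction. The counts come from unlike fits. The main siRNA and fraction comparisons leave the set difference in the spread, and most compare 2 arrays with 2. With the replicate block, which takes that difference out, 0 members were called as well. With the 4 groups in the model, limma called 5 of 33 members higher in set 2 and 13 lower, beside 24.2% and 26.4% of all genes. Higher in set 2 were RPA2 (log2 1.80, adjusted p = 0.000135), ORC1 (1.18), POLD3 (1.11), ORC2 (0.98) and RFC5 (0.85). Lower were GINS4 (-2.20), CCNE2 (-1.79, adjusted p = 0.000128), RRM1 (-1.67), CDT1 (-1.27), MCM5 (-1.13), PCNA (-0.92), MCM10 (-0.92) and MCM2 (-0.87). The other lower ones were E2F1 (-0.76), POLA2 (-0.75), CDC45 (-0.75), POLD1 (-0.64) and SLBP (-0.59). By these probe sets E2F1, CCNE2, PCNA, RRM1 and 3 MCM genes were lower in set 2, while 2 ORC genes and RPA2 were higher. The labels do not say what the sets are, so culture and technical differences cannot be told apart. Dimmer probe sets had the opposite sign for RRM1 (0.61, adjusted p = 0.0964, limma) and RFC5 (-0.19, 0.646), and CCNE2 gave -0.16 (0.756). Those of E2F1 (-2.52), MCM5 (-0.82), GINS4 (-0.75) and RPA2 (1.08) had the same sign and passed the test.

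**Figure D5:**
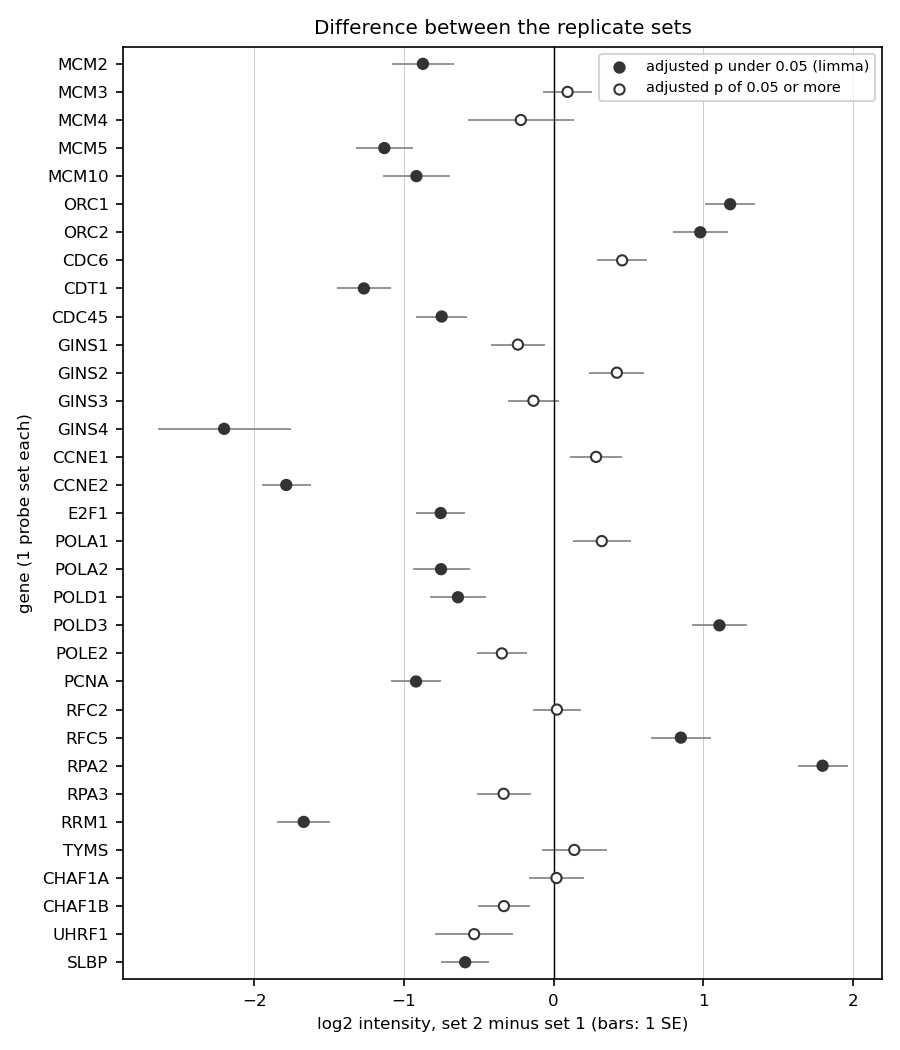
Log2 intensity of set 2 minus set 1 with the 4 groups in the model (horizontal axis; bars are 1 SE) for the 33 genes, with filled points at an adjusted p under 0.05 in limma. Of the 18 filled points 13 lie below 0, from GINS4 at -2.20 to SLBP at -0.59, and 5 above it, up to RPA2 at 1.80.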

How the data were processed

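Values were probe set intensity on a linear scale, as deposited by the authors. GCOS and RMA are listed in the submitters' processing notes, but their role is not given. The values were taken as already normalized. From the 52766 probe sets that were not Affymetrix controls, the brightest 50% by mean log2 over 8 arrays were tested (26383; limit 4.32, an intensity of 19.9). Gene names came from the platform annotation, in which 24969 of 52865 probe sets carried 1 symbol, 361 several, and 27535 are unnamed here. A gene was read by its brightest tested probe set, including 4 members (MCM5, GINS4, POLE2, RPA3) whose probes may match several transcripts. Group means were fitted on log2 values with limma 3.58.1 in R 4.3.3 (lmFit, eBayes, two-sided) over all 8 arrays, and a probe set was called at an adjusted p (Benjamini-Hochberg over all tested) under 0.05. The scripts were tested on simulated data. The members and lists were chosen with earlier results of these data known. Members given on every array were, per comparison, the 3 per direction with the smallest p, and a fixed set (PCNA, CCNE1, CCNE2, E2F1, CDC6, CDT1, SLBP, TYMS, MCM2). The labels do not say that replicates were separate cultures, so p-values measure the spread between these arrays. Alternatives were the replicate block, quantile normalization, a pseudocount of 16, no filter, the brightest 25%, a trend in the variance, and each array left out. The number of arrays limits the precision.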

Additional observations from a re-analysis of the deposited data

Results flagged for a closer look

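For 2 members the siRNA difference had one sign in cytoplasm in both sets and the opposite sign in polysomes in both sets, a pattern that 9.91% of all genes showed. POLD1 was higher in cytoplasm and lower in polysomes, with a change in loading of -0.84 (log2, SE 0.69), and POLE2 was lower in cytoplasm and higher in polysomes, with 0.38 (SE 0.50). Neither difference passed the test (adjusted p = 1.00 each, limma). The dimmer POLE2 probe set did not show the opposite signs (0.49 and -0.49 in cytoplasm, 0.64 and -0.01 in polysomes). Nor did the other POLD1 probe set, which was too dim to be tested (-0.30 and 0.23 in cytoplasm, 0.09 and 0.39 in polysomes).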

How the results depend on the processing

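With all 8 arrays, 0 of 33 members were called in each siRNA and fraction comparison under every setting run. With the replicate block, 2 probe sets were called over both fractions, neither of them a member. Of 695 values of single members under the alternatives, 647 kept their sign and side of the threshold and 48 reversed sign. The replicate block, no filter, the brightest 25% and the variance trend cannot change a log2 difference here. Nor can leaving out an array of a group that is not compared. Many of the 647 were thus fixed in advance, and the share is no measure of stability. Apart from E2F1 under quantile normalization, the reversals came with single arrays left out. Under quantile normalization E2F1 over both fractions was -0.049, and the member median minus that of all genes was 0.062 for loading in control cells and 0.042 for both siRNAs. With all probe sets of the members it was -0.10 in polysomes under RHA siRNA. The difference between sets gave 21369 probe sets with no filter and 7007 in the brightest 25%; fewer or more probe sets were tested there. With single arrays left out, that median difference ran from -0.16 to 0.036 for the siRNA over both fractions, -0.21 to 0.11 in cytoplasm and -0.27 to 0.052 in polysomes. It ran from -0.18 to 0.17 for the change in loading, 0.031 to 0.14 for loading in control cells, -0.13 to 0.24 under RHA siRNA and -0.0047 to 0.18 for both. The siRNA difference over both fractions then ran from -0.93 to 0.050 for CCNE2, -0.033 to 0.29 for CDC6, -0.51 to 0.28 for CDT1, -0.22 to 0.26 for E2F1 and -0.26 to 0.41 for MCM2. It ran from -0.39 to 0.14 for PCNA, -0.32 to 0.074 for SLBP and -0.22 to 0.10 for TYMS. CCNE2 in cytoplasm ran from -1.88 to 0.077, and in polysomes POLD1 ran from -1.07 to 0.065 and POLD3 from -0.014 to 0.88. The change in loading ran from -0.053 to 1.90 for CCNE2 and -0.10 to 0.79 for GINS2. Loading in control cells ran from -0.60 to 0.35 for E2F1, -0.64 to 0.25 for GINS2 and -1.01 to 0.47 for ORC1, and loading under both siRNAs from -0.22 to 0.078 for CCNE1, -0.39 to 0.086 for E2F1 and -0.52 to 0.22 for ORC1. The replicate block with single arrays left out was chosen after seeing the data. It gave 0 to 2 members in cytoplasm and 0 to 2 for loading in control cells, 0 to 954 probe sets over both fractions, 0 to 1150 in cytoplasm, 0 to 748 for loading in control cells and 0 to 274 for both siRNAs, each highest with the control cytoplasm of set 2 left out. The cause was not tested for any of these. RFC3 lay near the limit of brightness, and for it signal over background limits the reading.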
